A study of Homo sapiens with 6 samples.

Results

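The JAK-STAT pathway carries signals from cytokine receptors to the nucleus, and 9 of its genes were followed in A549 cells, a human lung adenocarcinoma line used as a model of lung epithelium. They are the receptor-bound kinases JAK1, JAK2 and TYK2, the transcription factors STAT2, STAT3, STAT6 and IRF9, and the feedback inhibitors SOCS1 and SOCS3. They were matched by symbol, and all 9 had a row among the 29845 genes of the count table. A filter on low counts left 16555 genes for testing, with 8 of the 9 among them (IRF9 was not tested). Of these 8, STAT2 and SOCS1 fell in the libraries labelled TFAM-OE and none rose, at an adjusted p under 0.05. Over all genes tested, 4.81% fell and 3.48% rose by that rule.

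The control cells carried the empty pIRES-hrGFP-1a vector, and the cells labelled TFAM-OE carried the same vector with a FLAG-tagged TFAM gene. TFAM is a mitochondrial DNA-packaging and transcription protein. Each group had 3 poly(A) RNA-seq libraries of transiently transfected cells, and both groups went through transfection, so untransfected cells were not part of the comparison. In bulk RNA a change in the number of responding cells and a change in RNA per cell cannot be told apart.

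As background, a cytokine brings receptor chains together, the bound JAK kinases phosphorylate the receptor, and STAT proteins dock there, are phosphorylated and move to the nucleus. Type I and type III interferons act through JAK1 and TYK2, and STAT2 and IRF9 take part in the complex ISGF3, which switches on antiviral genes. Interferon-gamma acts through JAK1 and JAK2, the IL-6 family acts mainly through STAT3, and IL-4 and IL-13 act through STAT6. SOCS1 and SOCS3 are induced by these signals and inhibit the JAK kinases. Lung epithelial cells respond to all of these cytokines.

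The libraries held between 26650854 and 37321956 counted reads. Reads of TFAM itself numbered 2555, 1878 and 2663 with the empty vector, against 2291, 2808 and 2492 where TFAM-OE is the label. The TFAM log2 fold change was 0.085 (SE 0.096, 95% interval -0.13 to 0.30, edgeR adjusted p = 0.623, n = 3 and 3), so TFAM mRNA did not show the labelled difference, and the groups are named here by their labels. The study detected the FLAG-tagged protein by western blot, which was not analysed here. The summed level of 8 A549 markers was 7636 to 7692 CPM (read counts relative to library size) in control and 7768 to 8482 in the other group. Within that list, EPCAM, an epithelial surface marker, averaged only 0.455 and 0.834 CPM, and CDH1 averaged 4.37 and 5.41 CPM. Leukocyte markers summed to 3.57 to 4.78 CPM in control and 2.80 to 3.63, with 4 of 6 in the table and 2 of those at 3 reads or fewer in all, and fibroblast markers (4 of 5 in the table) to 4.97 CPM in each control library and 3.11 to 5.20 CPM in the others. Single genes made up most of the leukocyte and fibroblast sums. ITGAM averaged 4.17 CPM in control and 3.06 CPM in the other group, and COL1A1 averaged 4.47 and 3.47 CPM. Endothelial markers (5 of 5) summed to 0.218 to 0.685 and 0.157 to 0.333 CPM.

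The upstream sequences of the genes that fell were examined for the letters bound by ISGF3 and by STAT dimers. RefSeq (GRCh38.p14) gave 15 windows for the 9 genes, each running from 250 bases before a transcription start to 50 bases after it. The interferon-stimulated response element was searched as GAAA, any 2 bases, GAAA, and the gamma-activated site as TTCNNNGAA, each on both strands. The first was present in 3.57% of 35116 windows and the second in 7.66%. A form with 1 more base between TTC and GAA, the STAT6-type site, was present in 6.44%. SOCS1 held 1 match to the first motif, in the 250 bases before its start (chr16:11256205-11256454, minus strand, the match in capitals):
SOCS1: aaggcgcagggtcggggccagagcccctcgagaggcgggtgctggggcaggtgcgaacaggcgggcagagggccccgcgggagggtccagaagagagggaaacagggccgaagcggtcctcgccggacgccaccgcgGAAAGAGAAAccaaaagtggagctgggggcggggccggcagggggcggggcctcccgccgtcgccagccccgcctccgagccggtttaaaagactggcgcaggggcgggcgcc
No motif was found in the STAT2 window. The 154 of its upstream bases that lie outside the annotated gene are shown because STAT2 fell as well (chr12:56360204-56360357, minus strand):
STAT2: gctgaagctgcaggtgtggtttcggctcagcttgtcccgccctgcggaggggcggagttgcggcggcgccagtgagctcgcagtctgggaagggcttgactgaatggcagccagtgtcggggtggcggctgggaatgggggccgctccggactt
IRF9 held 1 match to the gamma-activated site. The match began 63 bases before the RefSeq start, which differs from the start in the GENCODE gene models (24161234). It is shown with 10 bases on each side (chr14:24161192-24161220, plus strand, the match in capitals):
IRF9: accacgtgatTTCTGGGAAaaggccctcc
The windows of the other members held none of the 3 motifs. For SOCS3 the 2 windows (78360876 to 78361175 and 78359618 to 78359917) did not include 78360077, its start in the GENCODE gene models. The bases around that start were not searched. The STAT6 window (57110240 to 57110539) lay inside the GENCODE extent of the gene, away from its outermost start. A match is a run of letters and not a measured binding site.

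The kinases came first in the pathway, and none of the 3 passed the test. JAK1, which serves interferon, IL-6 and IL-4 receptors alike, lies on chromosome 1 (64833223 to 65067754, minus strand, GRCh38). Its scaled levels were 168, 156 and 159 CPM in control against 128, 152 and 202 CPM in the libraries labelled TFAM-OE. The control values lay inside the spread of the other group, and the log2 fold change was -0.0023 (SE 0.15, 95% interval -0.33 to 0.33, edgeR adjusted p = 0.994). Its exons share 647 bases (4.91%) with LINC01359 on the same strand.

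JAK2, the kinase of the interferon-gamma receptor (chromosome 9, 4984390 to 5129948, plus strand), was the least abundant of the 3. It had 230, 149 and 199 reads in control against 84, 130 and 149 in the libraries labelled TFAM-OE, or 6.85, 5.57 and 5.43 CPM against 2.64, 3.58 and 4.97 CPM. The highest of the latter lay just under the lowest control. The log2 fold change was -0.68 (SE 0.22, 95% interval -1.18 to -0.18), and its edgeR adjusted p of 0.0902 missed 0.05. Without TFAM-OE replicate 3 that p was 0.00779, and without any other single library it was 0.117 to 0.321. Leaving out TFAM-OE replicate 3 also brought the genes called lower over the whole table from 796 to 1786.

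TYK2, the partner of JAK1 at the type I interferon receptor (chromosome 19, 10350533 to 10380608, minus strand), had 40.0, 47.7 and 51.7 CPM in control against 66.8, 59.9 and 53.7 CPM in the libraries labelled TFAM-OE. All 3 of the latter were above every control, the reverse of JAK2. The log2 fold change was 0.37 (SE 0.13, 95% interval 0.09 to 0.65, edgeR adjusted p = 0.0978). Without TFAM-OE replicate 3 the adjusted p was 0.0196, and without any other single library it was 0.0907 to 0.314. Leaving out TFAM-OE replicate 3 also brought the genes called higher over the whole table from 576 to 1428.

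**Figure D1:**
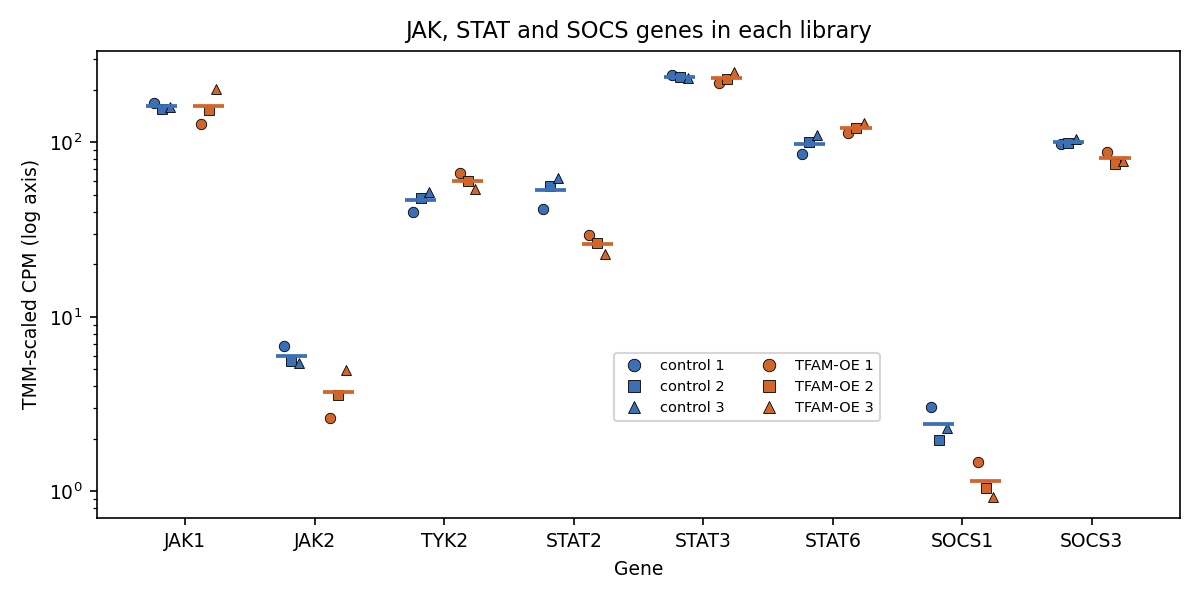
TMM-scaled CPM (log axis) of the 8 genes that passed the filter, in each of 3 control libraries (blue) and 3 labelled TFAM-OE (orange), with bars at the group means. STAT2 and SOCS1 are separated by a mean change of about 2-fold, while the JAK1 and STAT3 groups overlap.

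Among the STAT genes, STAT2 fell. STAT2 is the ISGF3 subunit that carries the activation domain (chromosome 12, 56341597 to 56360203, minus strand). It had 1397, 1507 and 2286 reads in control against 938, 960 and 691 in the libraries labelled TFAM-OE. Scaled, these were 41.6, 56.3 and 62.4 CPM against 29.4, 26.4 and 23.0 CPM. Every library labelled TFAM-OE was below every control, and the group means were 53.4 ± 10.7 and 26.3 ± 3.20 CPM (SD, n = 3). The log2 fold change was -1.02 (SE 0.16, 95% interval -1.38 to -0.67, edgeR adjusted p = 0.00552), or 2.03-fold lower.

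STAT3, the mediator of IL-6 family signals (chromosome 17, 42313324 to 42388540, minus strand), was the most abundant member. It had 242, 237 and 233 CPM in control and 219, 232 and 253 CPM in the other group. The groups overlapped, with a log2 fold change of -0.02 (SE 0.092, 95% interval -0.23 to 0.19, edgeR adjusted p = 0.921). That interval excludes a change as large as that of STAT2.

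STAT6, the mediator of IL-4 and IL-13 signals (chromosome 12, 57095408 to 57132139, minus strand), had 85.3, 99.8 and 110.2 CPM in control against 113.7, 121.0 and 129.0 CPM in the libraries labelled TFAM-OE. The latter were all above the controls, by a log2 fold change of 0.30 (SE 0.11, 95% interval 0.05 to 0.55), and the edgeR adjusted p was 0.129. It shares 69 exonic bases with NAB2 and 59 with LRP1, both on the opposite strand.

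IRF9, the DNA-binding subunit of ISGF3, had almost no reads assigned to it. The counts were 5, 1 and 5 in control against 1, 2 and 0 in the libraries labelled TFAM-OE, or 11 and 3 in all. It lies on chromosome 14 (24161234 to 24168043, plus strand), where the read-through gene ENSG00000259529 (24147548 to 24166452, same strand) joins RNF31 to IRF9. The exons of ENSG00000259529 cover 1513 of the 1626 bases (93.1%) of the 9-exon canonical IRF9 transcript. These are the GENCODE gene models, and with such an overlap the IRF9 count alone does not give the level of IRF9 mRNA.

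ENSG00000259529 had 3141, 2615 and 3772 reads in control against 2412, 2087 and 1372 in the libraries labelled TFAM-OE. Scaled, these were 93.5, 97.7 and 102.9 CPM against 75.7, 57.4 and 45.7 CPM, with no overlap. Its log2 fold change was -0.72 (SE 0.16, 95% interval -1.08 to -0.36, edgeR adjusted p = 0.0258), and the adjusted p was 0.0651 to 0.117 without control replicate 1, 2 or 3 or TFAM-OE replicate 2. Of its 5574 exonic bases, 1544 lie in IRF9 exons, 3457 in RNF31 exons and 573 in neither. RNF31, a subunit of a ubiquitin ligase, had a log2 fold change of -0.19 (edgeR adjusted p = 0.341), from 63.6 ± 5.01 to 55.8 ± 6.88 CPM (SD, n = 3). The share of the read-through reads that came from IRF9 mRNA cannot be read from gene counts.

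**Figure D2:**
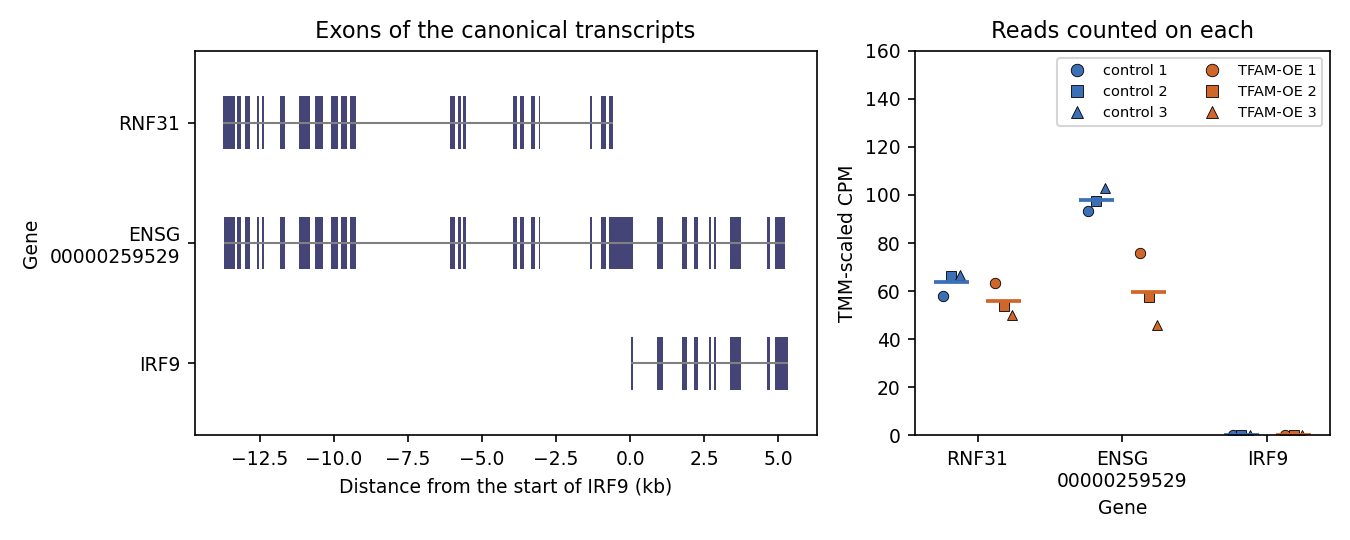
Left, exons of the canonical transcripts of RNF31, ENSG00000259529 and IRF9 against distance from the IRF9 start (kb). Right, TMM-scaled CPM of each gene in the 6 libraries with bars at the group means: ENSG00000259529 averages 98.1 in control against 59.6 in the libraries labelled TFAM-OE, and IRF9 lies near 0 in all.

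Of the inhibitors, SOCS1 fell. SOCS1 blocks the kinase domain of JAK1, JAK2 and TYK2 (chromosome 16, 11254417 to 11256204, minus strand), and its upstream sequence with the interferon-response letters was given above. It had 102, 53 and 85 reads in control against 47, 38 and 28 in the libraries labelled TFAM-OE, or 3.04, 1.98 and 2.32 CPM against 1.47, 1.05 and 0.933 CPM. The ranges did not overlap, and the log2 fold change was -1.09 (SE 0.25, 95% interval -1.65 to -0.53, edgeR adjusted p = 0.0282), or 2.13-fold lower. The adjusted p was 0.140 without control replicate 1, 0.0658 without control replicate 2 and 0.129 without TFAM-OE replicate 2. Leaving out those libraries also brought the genes called lower over the whole table from 796 to between 240 and 262. SOCS1 lies inside RMI2 on the opposite strand without sharing exons, and RMI2 had a log2 fold change of 0.45 (edgeR adjusted p = 0.0615).

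SOCS3, the inhibitor of gp130 signalling (chromosome 17, 78356778 to 78360077, minus strand), was far more abundant. It had 98.2, 99.2 and 104.7 CPM in control against 88.6, 75.4 and 78.6 CPM in the libraries labelled TFAM-OE, again without overlap. The log2 fold change was -0.32 (SE 0.097, 95% interval -0.53 to -0.10), and the edgeR adjusted p of 0.0737 missed 0.05. Without TFAM-OE replicate 1 it was 0.0338, and without any other single library it was 0.0618 to 0.324. Leaving out TFAM-OE replicate 1 also brought the genes called lower over the whole table from 796 to 1001.

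Over all genes tested, 4.81% fell and 3.48% rose at an adjusted p under 0.05 (8.29% in either direction), and 2.07% fell and 0.447% rose when a 2-fold change was also required. Both STAT2 and SOCS1 met the stricter rule, so 2 of the 8 tested members fell by it. Groups without overlap were found for 6 of the 8, with 4 lower (JAK2, STAT2, SOCS1 and SOCS3) and 2 higher (TYK2 and STAT6). Among all genes tested, 15.8% were lower without overlap and 15.8% higher. The median log2 fold change of the 8 was -0.17, beside -0.008 over all genes.

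Levels of different genes were compared per transcript length, as FPKM. In control the order was STAT3 (40.2 ± 1.90, SD, n = 3), SOCS3 (31.4 ± 0.606), JAK1 (27.2 ± 1.71), STAT6 (19.0 ± 1.93), STAT2 (13.4 ± 2.35), TYK2 (8.23 ± 0.840), SOCS1 (1.71 ± 0.420) and JAK2 (0.963 ± 0.154). No 2 neighbours in that order overlapped in range. In the libraries labelled TFAM-OE the order was STAT3 (39.2 ± 5.0), JAK1 (26.97 ± 7.80), SOCS3 (24.8 ± 1.63), STAT6 (23.2 ± 2.68), TYK2 (10.5 ± 0.607), STAT2 (6.49 ± 0.460), SOCS1 (0.783 ± 0.154) and JAK2 (0.600 ± 0.223). STAT2 lay above TYK2 in every control library and below it in every library labelled TFAM-OE. The ranges of STAT3 and JAK1, JAK1 and SOCS3, SOCS3 and STAT6, and SOCS1 and JAK2 overlapped there.

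Ratios within a library do not depend on scaling between libraries. STAT2 over STAT6 was 0.635, 0.733 and 0.736 in control against 0.337, 0.284 and 0.232 in the libraries labelled TFAM-OE. STAT2 over STAT3 was 0.336 ± 0.0731 and 0.168 ± 0.0325 (SD, n = 3), and SOCS1 over SOCS3 was 0.0543 ± 0.0129 and 0.0315 ± 0.00521. JAK1 over JAK2 was 28.5 ± 2.58 in control and 45.9 ± 4.29 in the other group. These 4 ratios separated the groups completely, with a two-sided exact permutation p of 0.1, the smallest that 3 against 3 allows, and 0.125 after adjustment over the 5 ratios tested. TYK2 over JAK1 did not separate them (0.304 ± 0.0478 and 0.413 ± 0.135, exact p = 0.3).

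The wider families were read from fixed symbol lists, which were chosen with earlier results of these data known. The counts stand beside shares of 4.81% lower and 3.48% higher over all genes tested. None of the 4 JAK kinases passed the test, with JAK3, the kinase of the common gamma chain, at a log2 fold change of 0.64 (edgeR adjusted p = 0.183). Of the 6 STAT genes reported here STAT2 fell. STAT4, STAT5A and STAT5B lay at 0.06, -0.01 and -0.07.

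Of 8 SOCS genes 2 fell, SOCS1 and SOCS5, beside 4.81% of all genes tested. SOCS5, which inhibits IL-4 receptor signalling, averaged 62.4 ± 8.94 CPM in control and 42.0 ± 5.94 CPM in the other group (SD, n = 3). This was -0.57 on the log2 scale (SE 0.14, edgeR adjusted p = 0.0340). Its adjusted p was 0.110 to 0.163 without control replicate 1, control replicate 2 or TFAM-OE replicate 2. CISH and SOCS4 lay at -0.34 and -0.40 and SOCS2, SOCS6 and SOCS7 between 0.04 and 0.22, none of them past the test.

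**Figure D3:**
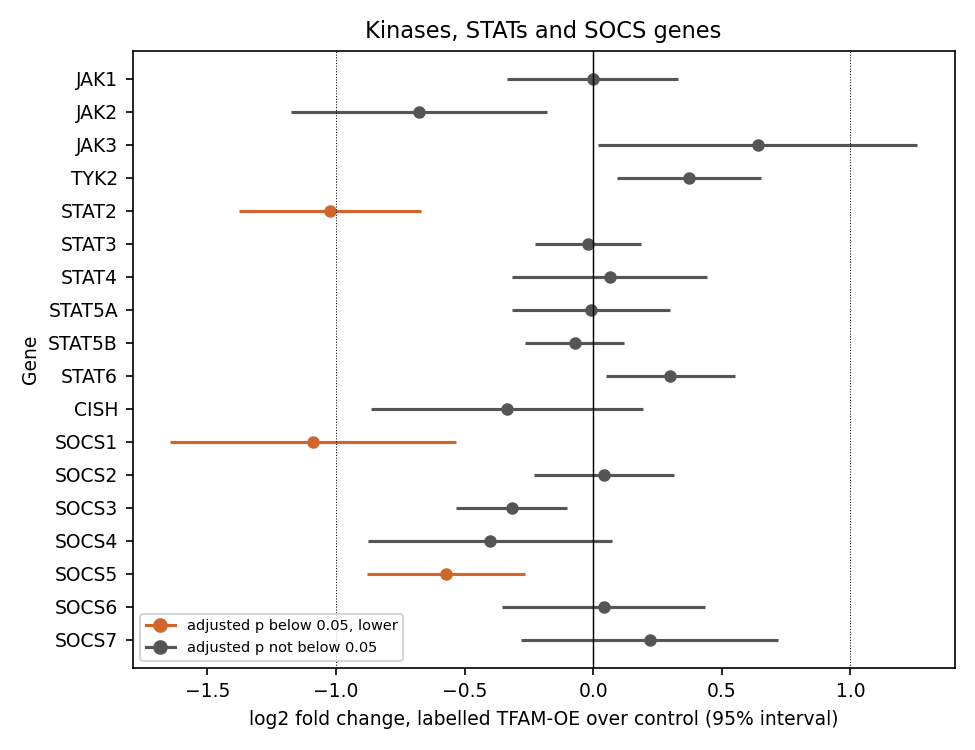
log2 fold change of 18 JAK, STAT and SOCS genes, libraries labelled TFAM-OE over control, with 95% intervals, orange where the adjusted p is below 0.05 and dotted lines at 2-fold. STAT2 (-1.02), SOCS1 (-1.09) and SOCS5 (-0.57) are the genes past the threshold.

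Upstream of the kinases, the tested interferon genes fell and their receptors did not pass the test. All 4 tested interferon ligands fell, beside 4.81% of all genes tested. Among them were IFNB1, from 174, 121 and 132 reads to 12, 5 and 5 (log2 fold change -4.28, edgeR adjusted p = 7.22e-05), and the type III gene IFNL1 (-3.87, edgeR adjusted p = 4.44e-05). IFNB1, IFNL2 and IFNL3 averaged 0.227, 0.254 and 0.258 CPM in the libraries labelled TFAM-OE, against 4.43, 2.75 and 2.88 CPM in control. They passed the filter on low counts only through the control libraries. A ligand this low under the TFAM-OE label could therefore be tested only if it was higher in control. IFNG, the gene of interferon-gamma, was not among the genes counted. None of the 6 interferon receptor genes passed, with a median of -0.21. IFNAR1, the TYK2-binding chain, was at -0.23 (edgeR adjusted p = 0.324) and IFNGR1 at -0.36 (edgeR adjusted p = 0.0591). Of 4 tested ligands of the gp130 and IL-4 receptors 2 fell, IL6 (-1.19, edgeR adjusted p = 0.00515) and CLCF1 (-0.49, edgeR adjusted p = 0.0320). None of their 8 tested receptors passed, with the shared chain IL6ST at -0.78 (edgeR adjusted p = 0.0509).

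Downstream, the target lists differed in their counts, which stand beside 4.81% of all genes tested called lower. These lists too were chosen with earlier results of these data known. Of 29 tested ISGF3 targets, a list that includes STAT2, all 29 fell, with a median log2 fold change of -2.71. IFI44L went from 24.8 to 1.96 CPM and OAS2, a sensor of double-stranded RNA, from 115.5 to 10.6 CPM. Of 11 tested interferon-gamma targets, which include SOCS1, 8 fell, with a median of -1.09, among them GBP1 (-2.14) and the immune checkpoint ligand CD274 (-1.41). CIITA, GBP2 and ICAM1 did not pass. Which interferon acted on the genes of this list was not tested. Of 15 tested STAT3 targets, which include SOCS3, 1 fell (JUNB, -0.47, edgeR adjusted p = 0.0378) and the median was -0.15. A count of 1 in 15 is close to the 4.81% share over all genes tested. Of 7 STAT6 targets 2 could be tested, CCL26 and CISH, and neither passed. The lists share genes, and the differences between them were not tested.

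Of 5 interferon regulatory factors, IRF1 (-0.61, edgeR adjusted p = 0.0240) and IRF7 (-1.93, edgeR adjusted p = 0.00132) fell, IRF2 and IRF3 did not pass, and IRF9 was not tested. The IRF1 adjusted p was 0.0539 to 0.117 without control replicate 1, 2 or 3 or TFAM-OE replicate 2. Leaving out the same libraries gave CLCF1 an adjusted p of 0.0824 to 0.154, and JUNB had 0.165 to 0.174 without control replicate 1, control replicate 2 or TFAM-OE replicate 2. Among 10 tested negative regulators outside the SOCS family, 1 fell and 1 rose, beside 4.81% and 3.48% of all genes tested. USP18, which blocks the type I interferon receptor at IFNAR2, fell (-1.76, edgeR adjusted p = 0.0010). PTPN6, the phosphatase SHP-1, had 261, 235 and 319 reads in control against 501, 630 and 533 in the libraries labelled TFAM-OE (log2 fold change 1.01, SE 0.12, edgeR adjusted p = 0.00178). The other 8, the PIAS genes among them, lay between -0.20 and 0.17.

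**Figure D4:**
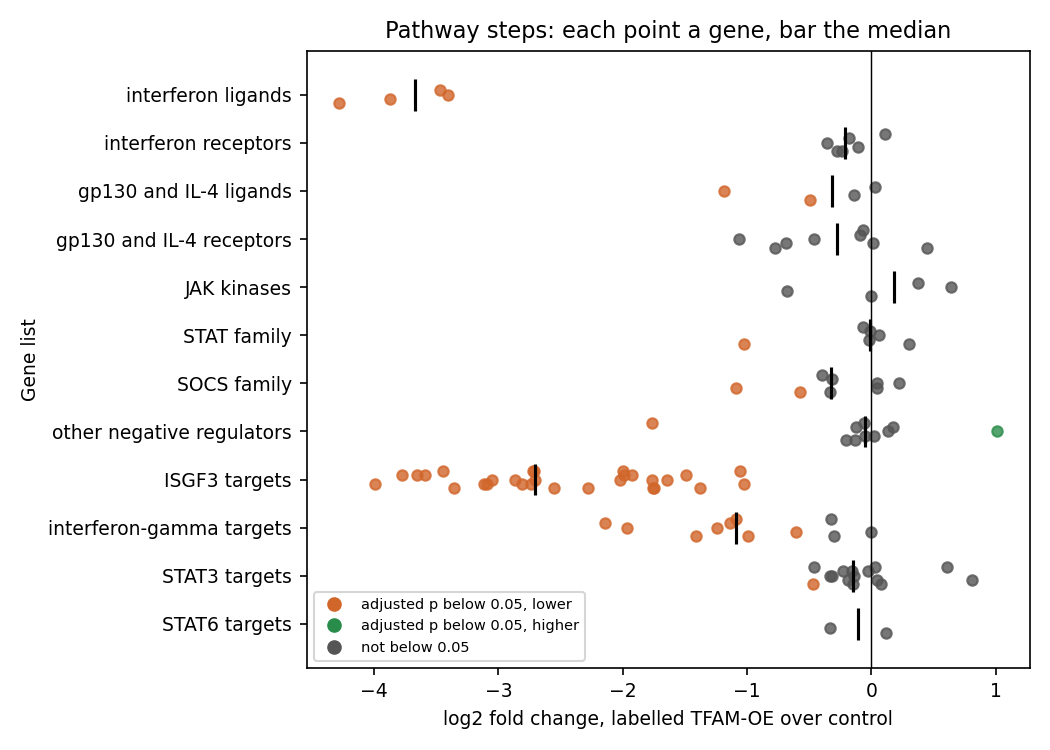
log2 fold change of each tested gene of 12 pathway lists, libraries labelled TFAM-OE over control, with a bar at each list's median. The interferon ligands (median -3.67) and ISGF3 targets (-2.71) lie to the left, while the receptor and kinase lists hold no gene past the threshold. Of the ligands, IFNB1, IFNL2 and IFNL3 passed the filter on low counts only through the control libraries.

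The genes whose levels followed STAT2 and SOCS1 most closely over the 6 libraries were sought among 9402 genes with a mean of at least 10 CPM. For STAT2 they were GTPBP1 and OSGEPL1 (Pearson r = 0.997 for both). For SOCS1 they were TUFT1 (r = 0.998) and SLC35G2 (r = 0.997). The 6 points of each pair share 2 groups of libraries and their depth, so these values describe the libraries only.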

How the data were processed

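Poly(A) RNA of A549 cells transfected with control or TFAM plasmid was sequenced in 3 libraries per group from a strand-specific kit. The authors aligned reads with TopHat2 to GRCh38 (bcl2fastq and edgeR are also named in the submitters' processing notes) and deposited raw read counts per gene and FPKM values, normalized by transcript length and depth. For the gene annotation and the strand setting of counting, the sources used here give nothing. Totals were 26650854 to 37321956 reads.

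Counts were fitted with edgeR 4.0.16 (R 4.3.3): filterByExpr, TMM scaling, a quasi-likelihood test without a replicate block, and Benjamini-Hochberg adjustment over 16555 genes, with an adjusted p under 0.05 as the threshold. CPM are TMM-scaled. Standard errors come from the F statistic. The scripts were tested on simulated data. There the test recovered 73.5% of changes of log2 size 1 and 98% of those of size 2. Of its calls at an adjusted p under 0.05, 6.67% were false. FPKM served for levels and ratios only. One planned ratio, IRF9 over STAT3, was not computed because IRF9 was listed at 0 in 1 library, so ratio p-values were adjusted over 5. Positions come from GENCODE gene models on GRCh38, which matched 97.2% of gene IDs, and promoters from RefSeq.

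Alternatives were DESeq2 1.42.0, limma 3.58.1 (voom, and trend on log2 FPKM plus 0.1 or 1), no filter, other scalings, a replicate block and leaving out each library. Named genes were the 9 members, list genes past the threshold (at most the 4 smallest p per list and direction) or named as receptor, kinase or STAT, and the 2 genes closest to each member past it. Examples outside that rule (list genes that did not pass, IFNG, EPCAM, CDH1, ITGAM, COL1A1, RNF31, ENSG00000259529 and RMI2) were chosen after their values were seen. Some list genes are not reported here and are left out of the list counts. The members and lists were chosen with earlier results of these data known. The libraries are described as biological replicates, with no batch in the labels.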

Additional observations from a re-analysis of the deposited data

How the results depend on the processing

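STAT2 kept its direction in 15 of 15 alternatives (log2 fold change -1.17 to -0.89) and was past the threshold in 14, all but the replicate block (edgeR adjusted p = 0.0503). SOCS1 kept its direction in 15 (-1.30 to -0.60) and was past it in 11. JAK2 was past it in 3, SOCS3 in 4, TYK2 in 2, STAT6 in 0 and PTPN6 in 15. JAK1 turned positive with DESeq2 (0.0056), no filter (0.0024), RLE scaling (0.0055) and upper-quartile scaling (0.00037). With single libraries left out JAK1 ran from -0.19 to 0.14, and STAT3 from -0.071 to 0.030, each with both signs.

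The replicate numbers showed no pairing in these correlations: deviations of same-numbered libraries correlated at -0.24, 0.01 and -0.28, and no library correlated best with its own number. Across numbers, control replicate 3 and TFAM-OE replicate 1 correlated at 0.264, and control replicate 1 and TFAM-OE replicate 3 at 0.258. What those libraries shared was not tested. Whether a number marks a shared day or batch was not tested. With the replicate block 0 members were lower at either threshold, against 2 without it. SOCS1 then had an adjusted p of 0.0598. Over all genes the block left 285 lower and 74 higher at the adjusted p, and 217 and 38 with a 2-fold change.

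Without the block these counts were 796, 576, 342 and 74. With no filter they were 1485, 1034, 528 and 129, and 1 member was higher at the adjusted p (TYK2). DESeq2 gave 934 higher at the adjusted p. At 2-fold, log2(FPKM + 1) gave 0 members and 108 genes lower and 11 higher, and log2(FPKM + 0.1) gave 44 higher. Larger pseudocounts shrink the change of low genes such as SOCS1. With single libraries left out, members lower ran from 1 to 3 at the adjusted p and from 0 to 2 at 2-fold, and members higher from 0 to 1. All genes ran from 240 to 1786 lower and 66 to 1428 higher at the adjusted p, and from 183 to 448 and 21 to 113 at 2-fold.

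Alternatives for ENSG00000259529 (past the threshold in 10 of 15), SOCS5 (8), IRF1 (10), CLCF1 (10), JUNB (11), and for PTPN6, IRF7, USP18, IL6, IFNB1, IFNL1, GBP1, CD274, IFI44L and OAS2 (15 each), as well as libraries left out of ratios and levels, were added after seeing the data. Except where stated, the cause was not tested. SOCS1 had 28 to 102 reads per library and JAK2 84 to 230, and IRF9 was not tested.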
